A study of Mus musculus with 10 samples.

Results

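The cell cycle genes described here are 39 transcripts, 19 of S phase and 20 of G2 and mitosis (G2/M), followed across the cell types and treatments of mouse livers that carried metastases of colorectal cancer. They were chosen by name from a fixed list, and all 39 were among the 32285 genes of the deposited count matrices. The tissue was dissociated with enzymes, and viable 7AAD-negative cells were sorted without antibodies. Libraries for 10x 3' gene expression and for T cell receptors were then made. The 5 livers comprised 1 of a mouse given IFNa together with aCTLA4, an antibody against the inhibitory receptor CTLA4 (combination, liver 22), 2 of IFNa LV-treated mice (IFNa, livers 18 and 23) and 2 of Control LV-treated mice (Control, livers 11 and 25), where LV is a lentiviral vector. The labels give neither the promoter of the vector, nor the strain, age or tumour line, nor whether each library came from its own mouse, so that p-values measure the spread between these libraries, which may be technical. The combination rests on 1 liver, which was assumed to vary like the others in every test that includes it.

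During S phase a cell copies its DNA. The MCM helicase (Mcm2 to Mcm7), its loader Cdc6 and its partners Cdc45 and Gins2 open the origins. Pcna holds the polymerases on the template, and Rrm1, Rrm2, Tyms and Dut supply and clean the nucleotide pool. In G2 and mitosis, Cdk1 with the cyclins Ccna2, Ccnb1 and Ccnb2 drives entry. The kinases Plk1, Aurka and Aurkb and the motors Cenpe, Kif11 and Kif23 build the spindle and divide the cell, and Cdc20 and Ube2c turn on the destruction of the cyclins by the anaphase-promoting complex. In resting cells most of these genes are held off by the DREAM repressor complex. E2F factors release the S genes, and B-Myb and FoxM1 the G2/M genes. In a tumour-bearing liver, dividing cells can be tumour cells, responding lymphocytes and myeloid precursors.

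The known control sequences of the 2 phases differ: E2F sites mark S promoters, and the cell cycle homology region (CHR), often beside CCAAT boxes, marks G2/M promoters. RefSeq promoter windows on GRCm38.p6 were matched for 34 of the 39 genes, and the 250 bases before the start were searched on both strands. The CHR letters TTTGAA or TTCGAA were found for 7 of 17 G2/M genes (41.2%) and 3 of 17 S genes (17.6%), against 19.6% of 27025 genes. The E2F letters TTTCCCGC, TTTGGCGC, TTTGCCGC or TTTCGCGC were found for 5 of 17 S genes (29.4%) and 1 of 17 G2/M genes (5.88%), against 2.16% of all genes, and CCAAT for 15 of 17 G2/M genes (88.2%) and 12 of 17 S genes (70.6%), against 37.5%. Such a match describes letters, and no binding was measured. Windows are shown for genes called in classical monocytes of IFNa against Control livers, described below, that carry the letters of their phase in the last 170 bases. These were 4 genes of each phase. They are Ccnb2 at chr9:70421555-70421724 on the minus strand, Cdc20 at chr4:118437344-118437513 on the minus strand, Mki67 at chr7:135716380-135716549 on the minus strand, Ube2c at chr2:164769759-164769928 on the plus strand, Cdc6 at chr11:98907981-98908150 on the plus strand, Mcm5 at chr8:75109339-75109508 on the plus strand, Mcm6 at chr1:128359706-128359875 on the minus strand and Mcm7 at chr5:138171884-138172053 on the minus strand. Each runs 5′ to 3′ along the gene's own strand. Capitals mark CHR and CCAAT letters or their complements in the G2/M genes. In the S genes they mark E2F and CCAAT letters or their complements. Where 2 E2F matches overlapped, in Mcm5 and at the first Mcm6 site, only the first was marked.
Ccnb2: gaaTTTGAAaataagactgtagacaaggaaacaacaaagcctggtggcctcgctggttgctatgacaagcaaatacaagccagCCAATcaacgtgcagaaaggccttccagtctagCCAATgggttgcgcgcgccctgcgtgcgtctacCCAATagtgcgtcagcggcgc
Cdc20: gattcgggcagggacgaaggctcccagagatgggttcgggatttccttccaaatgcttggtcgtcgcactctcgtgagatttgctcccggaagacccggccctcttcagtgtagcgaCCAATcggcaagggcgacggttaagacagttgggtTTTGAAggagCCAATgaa
Mki67: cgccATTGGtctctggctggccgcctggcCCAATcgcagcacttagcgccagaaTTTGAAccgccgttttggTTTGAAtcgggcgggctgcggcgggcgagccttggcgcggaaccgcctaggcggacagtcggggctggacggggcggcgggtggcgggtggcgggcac
Ube2c: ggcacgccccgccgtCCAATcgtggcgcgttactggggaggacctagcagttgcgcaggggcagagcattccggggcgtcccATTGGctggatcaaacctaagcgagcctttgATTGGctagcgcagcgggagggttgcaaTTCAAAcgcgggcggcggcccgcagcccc
Cdc6: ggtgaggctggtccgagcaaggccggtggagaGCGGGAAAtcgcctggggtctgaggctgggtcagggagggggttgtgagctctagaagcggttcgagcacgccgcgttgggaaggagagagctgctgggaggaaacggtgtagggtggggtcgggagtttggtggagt
Mcm5: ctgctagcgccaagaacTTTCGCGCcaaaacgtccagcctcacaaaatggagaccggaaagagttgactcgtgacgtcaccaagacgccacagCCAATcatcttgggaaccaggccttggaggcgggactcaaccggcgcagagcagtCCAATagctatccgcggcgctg
Mcm6: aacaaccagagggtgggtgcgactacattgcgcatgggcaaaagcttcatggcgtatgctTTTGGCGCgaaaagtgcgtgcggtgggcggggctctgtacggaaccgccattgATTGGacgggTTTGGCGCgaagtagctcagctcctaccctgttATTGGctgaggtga
Mcm7: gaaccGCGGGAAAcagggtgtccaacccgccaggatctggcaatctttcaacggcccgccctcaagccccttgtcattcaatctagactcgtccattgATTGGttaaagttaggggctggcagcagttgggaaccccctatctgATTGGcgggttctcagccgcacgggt

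The 5 libraries held 28039 barcodes, of which 26229 cells were kept, and 19273 of these were placed in a class by marker genes. Libraries differed in size, with 9605 barcodes in the combination liver, 6290 and 5574 in the IFNa livers and 5707 and 863 in the Control livers, and Control 25 gave only 28 to 42 cells of each T and NK class. The share of cells that no gate took was 34.9% in the combination liver, with a median of only 1592 UMIs (unique molecules) per ungated cell, against 16.8% to 24.4% in the other livers. Any pair of libraries shared 4 to 81 barcodes. Epithelial cells of IFNa 23 and classical monocytes of Control 11 stood apart, as described beside their results. All summed levels below are CPM, the UMIs of a gene scaled to a common total over the cells of a class in a liver. Less RNA per cell and fewer dividing cells cannot be told apart in such sums.

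Cells were called positive when at least 2 S genes or at least 2 G2/M genes had a UMI after each cell was thinned to 2000 UMIs, because the calls follow depth. Without thinning, 71.0% of CD8 T cells of the combination liver met the rule, against 35.3% with it. The call separates cells on the basis of detection only and does not by itself show that a cell was dividing. Types taken as resting, in which dividing cells were not excluded, set the background level, and its source was not tested. Non-classical monocytes, with median depths of 7600 to 10210 UMIs, met the S or G2/M rule in 4.41% of cells in the combination liver, 3.57% and 1.89% in the IFNa livers and 0 of 75 cells in Control 11. None met the G2/M rule in these 4 livers, which allows a share of up to 1.86% in IFNa 18 and up to 5.28% in the combination liver, the smallest sample. Mature neutrophils met the G2/M rule in 3.57% of cells of IFNa 18, against 1.27% in Control 11 and 0 of 24 cells in Control 25, which allows up to 14.25%. Their median depths were 3340 to 4550 UMIs. Shares at or below these levels cannot be told apart from background.

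**Figure D1:**
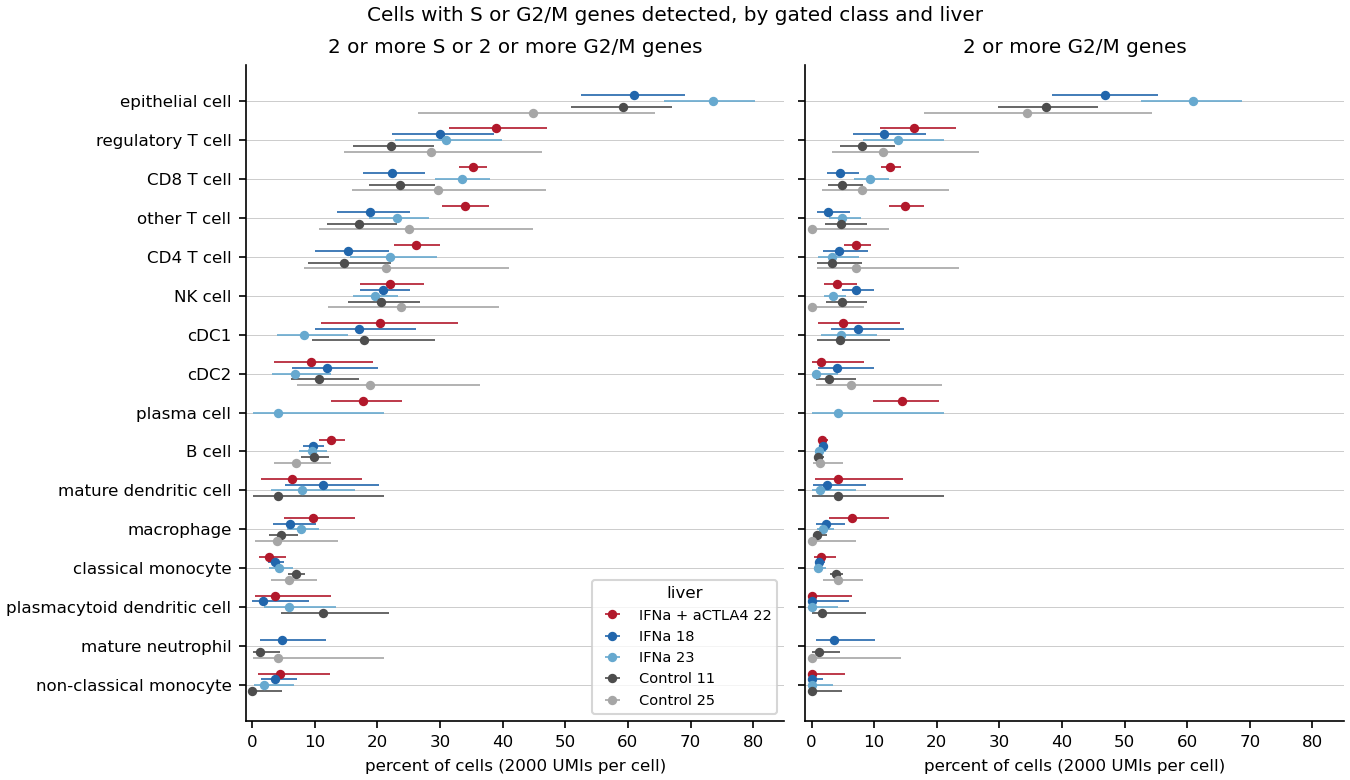
Percent of cells, thinned to 2000 UMIs, with 2 or more S or 2 or more G2/M genes (left) and with 2 or more G2/M genes (right), by gated class (rows) and liver (colours); bars are exact 95% binomial intervals, which cover counting error only. Epithelial cells lie highest, between 44.8% and 73.5% on the left, and non-classical monocytes lie at 0% on the right in each of 4 livers.

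Epithelial cells, gated on Epcam, keratins and genes such as Cdh17 and Lgals4, met the rule most often. Hepatocyte markers summed to only 1.29 to 10.7 CPM in them, against 7858 to 10350 CPM for the gate's own markers. The share was 61.0% and 73.5% in the IFNa livers and 59.2% and 44.8% in the Control livers, and the combination liver gave too few such cells (16). Regulatory T cells (Tregs) followed, with 39.0% in the combination liver, 39 of 130 cells and 30.9% in the IFNa livers and 22.1% and 28.6% in the Control livers. CD8 T cells lay between 22.3% and 35.3%, and other T cells between 17.0% and 34.0%. CD4 T cells between 14.6% and 26.2% and NK cells between 19.6% and 23.8%, and these ranges overlap. Next came cDC1, cross-presenting dendritic cells, with 8.33% to 20.3%, and cDC2 with 6.87% to 18.8%, while B cells met the rule in 7.04% to 12.6%, macrophages in 4.0% to 9.76% and classical monocytes in 2.66% to 7.03% of cells.

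The G2/M genes separated the classes further than the S genes. By the G2/M rule alone, epithelial cells reached 46.8% and 60.9% in the IFNa livers and 37.5% and 34.5% in the Control livers, Tregs 8.14% to 16.4%, and CD8 T cells 4.53% to 12.6%. B cells stayed at 1.0% to 1.80%, within the background of the mature neutrophils, although up to 11.6% of them met the S rule. Plasma cells, antibody-secreting cells, were numerous only in the combination liver, where 14.5% of 186 cells met the G2/M rule (95% interval 9.79% to 20.4%), against 1 of 24 cells in IFNa 23. Small classes gave high values on few cells: 5 of 32 immature neutrophils (15.6%) and 3 of 22 erythroid cells (13.6%), both in Control 11.

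Cells with 2 or more G2/M genes came from different classes in different livers. In the combination liver 225 of 619 such cells (36.4%) were CD8 T cells, against 5.65% and 13.2% in the IFNa livers and 5.46% and 7.14% in the Control livers. Epithelial cells made up 1.13% of them in the combination liver, 28.7% and 28.2% in the IFNa livers and 23.9% and 23.8% in the Control livers. Classical monocytes made up 0.646% in the combination liver, 4.35% and 1.53% in the IFNa livers and 23.5% and 19.1% in the Control livers. These parts also follow how many cells of each class were recovered: 1898 CD8 T cells in the combination liver, against 290 and 472 in the IFNa livers and 269 and 37 in the Control livers.

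**Figure D2:**
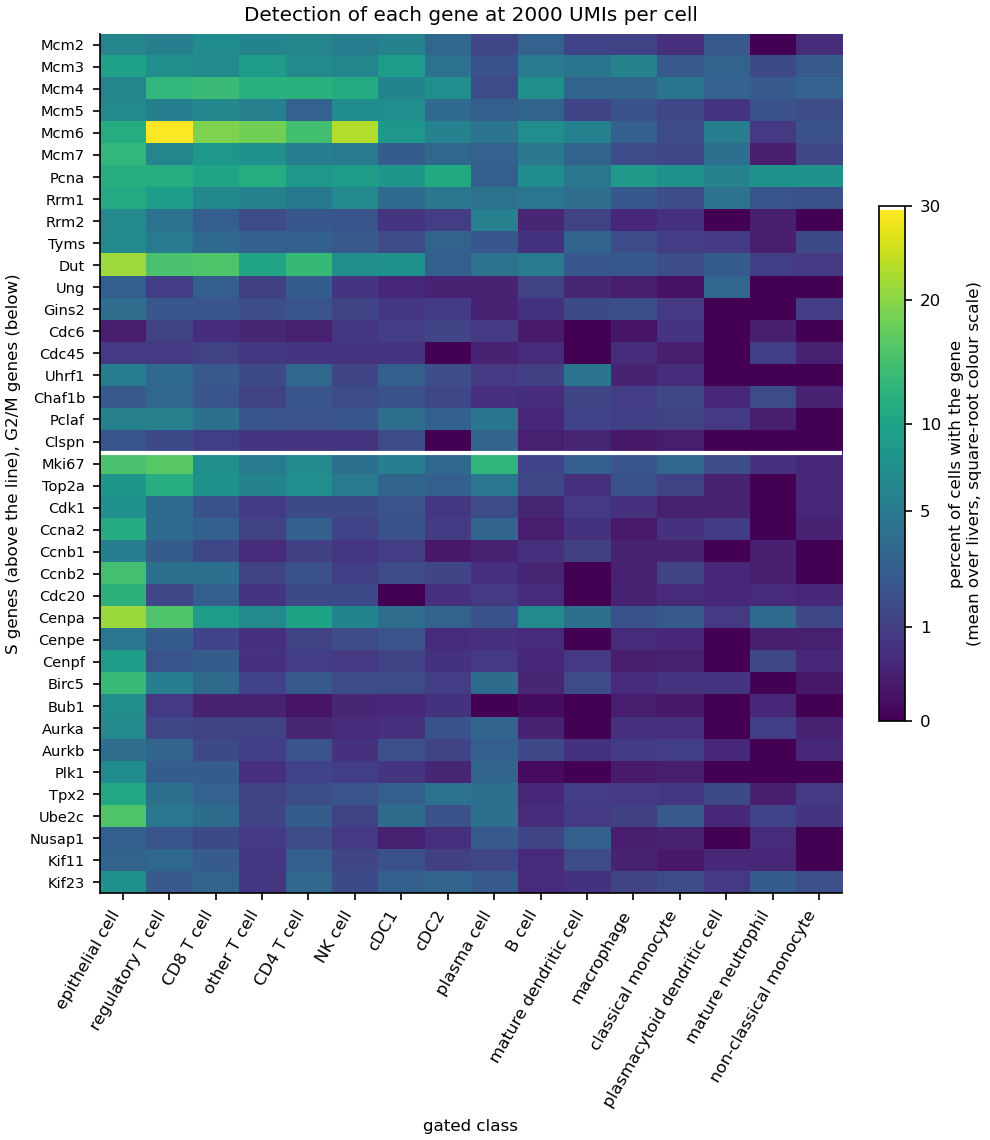
Percent of cells with at least 1 UMI of each gene (rows, S genes above the white line) by gated class (columns), as the mean over livers at 2000 UMIs per cell, on a square-root colour scale. G2/M genes are detected mainly in the left columns (epithelial cells, T cell classes), whereas Mcm6, Pcna and Dut are also seen in classes to the right.

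Summed levels gave the same leading classes. S genes summed to 1421 ± 365 CPM in Tregs (SD, n = 5 livers), 978 ± 206 CPM in epithelial cells (n = 4), 885 ± 249.6 CPM in CD8 T cells, 775 ± 238 CPM in NK cells and 356 ± 47.0 CPM in B cells (n = 5 each). G2/M genes summed to 1300.0 ± 374 CPM in epithelial cells, 1252 ± 275 CPM in Tregs, 815 ± 488 CPM in CD8 T cells, 507 ± 313 CPM in NK cells and 152 ± 22.6 CPM in B cells. The spread in T and NK cells includes Control 25, where 37 CD8 T cells gave 1600.0 CPM and 28 CD4 T cells 2191 CPM of G2/M genes, and 42 NK cells only 77.9 CPM. Of these 5 classes B cells had the lowest mean in both, and the ranges of the others overlapped between neighbours. In Control 25, however, NK cells were below the B cell mean for G2/M genes. Erythroid cells reached 4443 CPM of G2/M genes in Control 11 (22 cells) and 813 CPM in IFNa 18 (20 cells).

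In epithelial cells the named genes were mostly higher in the IFNa livers, in level but not by the test. Ube2c, the ubiquitin-conjugating enzyme of the anaphase-promoting complex, stood at 160 and 253 CPM in the IFNa livers, against 147 and 105 CPM in the Control livers. Mki67, which coats mitotic chromosomes, stood at 113.5 and 154 CPM in the IFNa livers and 90.1 and 84.8 CPM in the Control livers. Birc5 (survivin, of the chromosomal passenger complex) had 109 and 116.5 CPM, against 104 and 51.4 CPM, and Cdc20 had 98.4 and 122 CPM, against 89.2 and 63.0 CPM in the same order of IFNa and Control livers. None of these 4 genes passed the test described below, which called 0 of all 11091 genes in epithelial cells. The share of all genes that stood higher in both IFNa livers was not counted. Top2a, the topoisomerase that untangles sister chromatids, was set apart by 1 liver, with 42.6 and 98.2 CPM in IFNa 18 and 23 and 32.8 and 32.1 CPM in Control 11 and 25. Among S genes, Pcna stood at 111 and 123 CPM in the IFNa livers and 103 and 82.3 CPM in the Control livers, and Mcm5 at 72.8 and 73.7 CPM, against 53.5 and 36.0 CPM in Control livers. Rrm2, the regulated subunit of ribonucleotide reductase, overlapped, with 40.03 and 38.03 CPM in the IFNa livers and 29.7 and 69.4 CPM in the Control livers. These levels include shallow cells of IFNa 23 that also carried leukocyte transcripts. In cells of 10000 UMIs or more, Ube2c had 162 and 262 CPM in the IFNa livers, against 150.2 and 109 CPM in the Control livers, and Mki67 113.5 and 144 CPM, against 92.9 and 88.9 CPM in Control livers. In those cells Birc5, Cdc20, Top2a, Pcna and Mcm5 also stood higher in both IFNa livers, and Rrm2 overlapped.

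In Tregs the same 8 genes showed which livers were low. Mki67 stood at 230 CPM in the combination liver, 279 and 270 CPM in the IFNa livers and 162 and 249 CPM in the Control livers. Rrm2 stood at 101 CPM in the combination liver, 95.2 and 102 CPM in the IFNa livers and 31.9 and 92.8 CPM in the Control livers, so that Control 11 alone was low. Mcm5 (102 in the combination, 73.7 and 106 in IFNa, 33.5 and 75.7 CPM in Control) and Pcna (103, 97.0 and 112, 61.6 and 97.6 CPM in the same order) also had Control 11 lowest. Birc5 had no overlap, with 115 CPM in the combination liver, 98.8 and 111.5 CPM in the IFNa livers and 48.7 and 51.3 CPM in the Control livers. For Cdc20 (19.6, 41.3, 42.8, 15.2 and 21.97 CPM), Ube2c (94.0, 89.8, 151, 72.3 and 68.3 CPM) and Top2a (160, 165, 196, 123 and 254 CPM in combination 22, IFNa 18, IFNa 23, Control 11 and Control 25), the combination liver lay inside the Control range for Cdc20 and Top2a and above it for Ube2c. For Top2a the highest liver was Control 25.

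Set against B cells of the same livers, nearly all cell cycle genes were higher in the T and NK classes and in epithelial cells. The edgeR quasi-likelihood test with the liver as a covariate and Benjamini-Hochberg adjustment called 38 of 39 genes higher in Tregs, where 29.5% of all genes tested were called higher, and 38 of 39 in CD8 T cells (28.8%). It called 36 of 39 higher in NK cells (27.5%), 35 of 39 in epithelial cells (37.6%), 33 of 39 in other T cells (26.1%), 30 of 38 in CD4 T cells (23.4%) and 30 of 39 in cDC1 (31.2%). These shares of the list lie well above the shares of all genes. The median log2 fold change of the tested cell cycle genes was 2.66 in Tregs, 2.18 in epithelial cells, 1.98 in CD8 T cells and 1.52 in NK cells, against medians of all genes between -0.04 and 0.00.

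G2/M genes differed from B cells by more than S genes. Median log2 fold changes for G2/M and S genes were 3.81 and 1.48 in epithelial cells, 3.10 and 1.89 in Tregs, and 2.27 and 1.52 in CD8 T cells. Plk1, the polo-like kinase of mitotic entry, differed most in 6 of these classes, by 2.77 ± 0.47 in other T cells, 4.86 ± 0.33 (SE) in epithelial cells, 4.28 ± 0.31 in Tregs, 3.35 ± 0.29 in CD8 T cells, 3.32 ± 0.34 in CD4 T cells and 3.25 ± 0.46 in NK cells (edgeR adjusted p of 0.000605 or smaller). Among the genes not called, Aurkb, a chromosomal passenger kinase, differed by 0.44 ± 0.29 in CD8 T cells (adjusted p = 0.23) and 0.24 ± 0.33 in epithelial cells (adjusted p = 0.519), and Ung, a uracil-DNA glycosylase that also acts in antibody diversification in B cells, by 0.13 ± 0.39 in Tregs (adjusted p = 0.788).

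In 4 classes more cell cycle genes were lower than higher against B cells, and by larger shares than among all genes. In macrophages 23 of 36 tested genes were lower (35.5% of all genes were called lower) and 1, Gins2, was higher (34.3% of all genes higher). In non-classical monocytes 23 of 27 were lower (34.8% of all genes) and 0 higher (30.5%). Plasmacytoid dendritic cells had 16 of 28 lower (26.3%) and 0 higher (26.6%), and mature neutrophils 11 of 15 lower (26.9%) and 1 higher, Kif23 (22.7%). In classical monocytes 11 of 39 were lower, below the share of all genes (38.4%), and 3 were higher (34.7%): Cdc6 by 1.36 ± 0.41, Ube2c by 1.21 ± 0.40 and Kif23 by 0.92 ± 0.23. cDC2 had 6 of 34 higher (32.3% of all genes) and 4 lower (32.9%), led by the spindle factor Tpx2 at 2.83 ± 0.31 (edgeR adjusted p = 1.3e-05), and mature dendritic cells 4 of 32 higher (27.8%) and 5 lower (30.1%). Genes without enough counts were not tested, so these counts do not cover every gene in the classes with few.

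The division of the list into phases was checked in cells of all gated classes, leaving the tested gene out of the call. Here S-only cells had 2 or more other S genes and no other G2/M gene, and G2/M-only cells the reverse. All 20 G2/M genes were detected in a larger share of G2/M-only cells than of S-only cells. Examples were Ccnb2 in 17.6% against 0.749% and Birc5 in 16.3% against 0.749%. Only 12 of 19 S genes were detected more often in S-only cells, among them Mcm5 (7.32% against 2.08% of G2/M-only cells) and Mcm6 (21.2% against 13.9%). Pclaf, the PCNA-associated factor, was found in 2.09% of S-only cells, 7.81% of G2/M-only cells and 45.01% of cells that met both rules, and Rrm2 in 1.66%, 4.07% and 34.7%. Cells in which no other gene of either phase was detected still had Mcm6 (7.43%), Pcna (7.22%), Mcm4 (5.84%) and Dut (4.62%). Mki67 was in 1.97% and Ccna2 in 0.152% of such cells.

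Across 74 sums of a class in a liver, which share libraries and depth, only genes with a mean of at least 10 CPM were correlated. Outside the list, the genes whose log2 CPM followed the summed S genes most closely were Stmn1 (Pearson r = 0.899), Prim1 (0.887), Cenpw (0.882), Kif20b (0.864) and Hmgb3 (0.861). For the summed G2/M genes they were Cdca8 (0.944), Cdca3 (0.911), Kif22 (0.895), Prc1 (0.894) and Ncapd2 (0.875). Stmn1 encodes a microtubule regulator, Prim1 the primase subunit, Cdca8 (borealin) a chromosomal passenger and Prc1 a spindle midzone bundler. Of the listed genes with such a mean, which are part of the sums, Ccna2 (0.953) and Birc5 (0.946) followed the G2/M sum most closely. Pcna had 0.713 with the S sum and 0.484 with the G2/M sum.

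The comparison of IFNa with Control livers asks how IFNa alone altered these genes within each class. The share of cells meeting the rule was higher in both IFNa livers in Tregs (39 of 130 cells and 30.9%, against 22.1% and 28.6% in Control), macrophages (6.05% and 7.84%, against 4.53% and 4.0% in Control) and epithelial cells, and lower in classical monocytes. The differences were 5.12 percentage points in Tregs (pooled SD 3.27), 2.68 in macrophages (0.935), 15.2 in epithelial cells (9.53) and -2.50 in classical monocytes (0.665), and the exact two-sided permutation test gave p = 0.333 for each, the smallest that 2 against 2 livers allow. The classical monocyte shares of the IFNa livers (3.63% and 4.29%) and the macrophage shares of the Control livers lay within background. By the same rule, mature neutrophils of IFNa 18 gave 4.76% (4 of 84 cells, exact binomial interval 1.31% to 11.75%). The higher shares, in classical monocytes of Control livers (7.03% and 5.88%) and macrophages of IFNa livers, exceeded 4.76% but lay inside this interval. By that sample, from 1 liver, these higher shares cannot be told apart from background. Within Control 11, however, the monocyte interval (5.77% to 8.47%) lay above those of mature neutrophils (0.154% to 4.50%) and non-classical monocytes (0 of 75 cells, up to 4.8%). For Control 25 monocytes and macrophages of the IFNa livers, intervals overlapped those of such types in the same liver. In 6 further classes the groups overlapped: CD8, CD4 and other T cells, NK cells, B cells and cDC2 differed by values between -5.30 (cDC2) and 1.18 (CD8 T cells) points. Without thinning the Treg difference was -3.29 points and the classical monocyte difference -13.6 points, while Treg depth also differed (median 6292 and 7682 UMIs in IFNa livers, 5920 and 7251 in Control livers).

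In Tregs of IFNa livers all 39 genes had a positive log2 fold change over Control, with a median of 0.77. An unadjusted p under 0.05 was found for 19 of them and for 834 of all 10312 genes tested. Only 1 of the 39 passed adjustment (0.533% of all genes were called). That gene was Cdc6, which loads the MCM helicase at origins. It stood at 16.2 CPM in the combination liver, 35.9 and 26.6 CPM in the IFNa livers and 3.80 and 7.32 CPM in the Control livers, from 24, 40, 36, 5 and 3 UMIs. Both IFNa livers lay above both Control livers, and the log2 fold change of Cdc6 was 2.68 ± 0.47 (SE, edgeR adjusted p = 0.0388). The call was lost with a stricter gate (adjusted p = 0.0835), with doublets kept (0.0618), without Control 11 (0.156) and with DESeq2, which gave no adjusted p. Of 68 further cell cycle regulators tested, 58 had a positive fold change, 20 an unadjusted p under 0.05, and 0 passed adjustment.

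The S genes of Tregs summed to 1622 CPM in the combination liver, 1552 and 1735 CPM in the IFNa livers and 808 and 1386 CPM in the Control livers. Control 11 was lowest and Control 25 was nearer the IFNa livers. The 15 regulators of origin licensing and replication all had a positive fold change, with a median of 0.82, and so did 14 of 14 of the mitotic checkpoint, kinetochore and chromosome list (0.59). Treg markers (Foxp3, Il2ra, Ikzf2, Ctla4) summed to 4646 CPM in the combination liver, 4105 and 4363 CPM in the IFNa livers and 4517 and 4601 CPM in the Control livers. A Foxp3 UMI without a Cd8a or Cd8b1 UMI defined these cells, so the markers describe the gate.

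**Figure D3:**
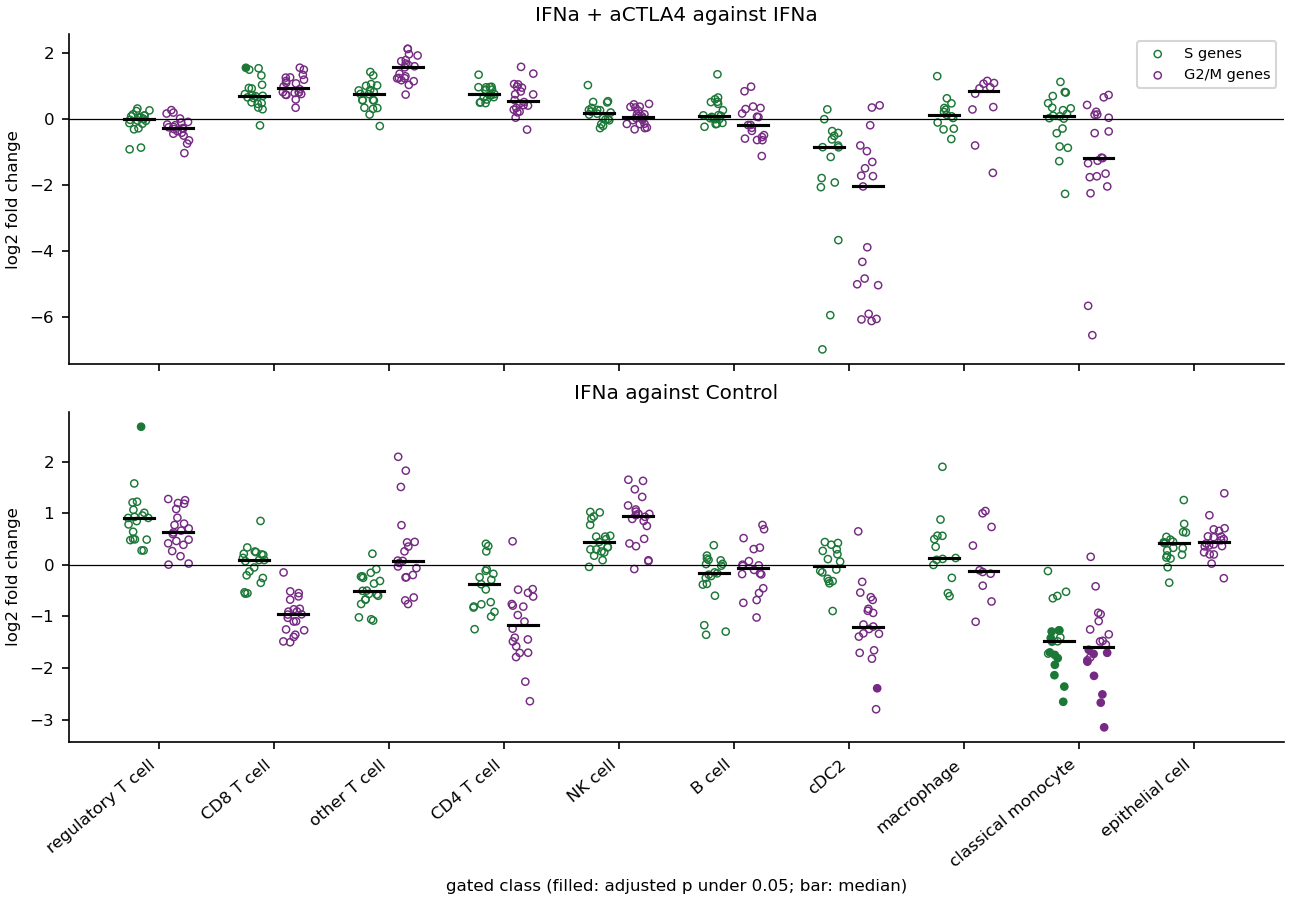
Log2 fold change of each tested gene (points) by gated class, for the combination against IFNa (top) and IFNa against Control (bottom); S genes are green, G2/M genes purple, filled points passed an adjusted p of 0.05 and bars are medians. Classical monocytes hold 19 of the filled points in the lower panel, and values below -4 in the upper panel belong to genes with 0 or 1 UMI in the combination cells of cDC2 or monocytes, whose fitted size is no bound.

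In CD8 T cells none of 39 genes passed the test of IFNa against Control (0.239% of all genes did), 9 had an unadjusted p under 0.05, and the phases differed in sign, with medians of 0.09 for S genes and -0.96 for G2/M genes, all 20 of which were negative. The G2/M value leaned on Control 25: summed G2/M genes were 368 and 592 CPM in the IFNa livers and 554.5 and 1600.0 CPM in the Control livers, the last from 37 cells, and Mki67 had 48.2 and 91.7 CPM in IFNa livers and 92.6 and 301 CPM in Control livers. None passed in CD4 T cells (0.15% of all genes called), where 33 of 37 were negative and 6 had an unadjusted p under 0.05, or in other T cells (0.105%), where 26 of 38 were negative and 2 had one. DESeq2 gave 0 in these 3 classes, and without the filter on low counts edgeR called 5 in CD8, 5 in CD4 and 1 in other T cells. Of all genes, 440 of 11283 in CD8 and 560 of 9345 in CD4 T cells had an unadjusted p under 0.05. In other T cells 485 of 10504 had one.

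NK cells had 37 of 39 positive fold changes, a median of 0.57 and 4 unadjusted p under 0.05, and none passed (0.851% of all genes). Mki67 stood at 191 and 84.7 CPM in the IFNa livers and 102 and 3.24 CPM in the Control livers, so that the order followed single livers, and without IFNa 23 the count was 10. B cells had none called of 37 (1.15% of all genes, 2 unadjusted), and in mature neutrophils the 1 gene with enough counts was not called (0.128%, 1 unadjusted). In macrophages, 23 genes had enough counts and none passed (3.42%, 1 unadjusted), with medians of 0.13 for S and -0.12 for G2/M genes, although the share of positive cells was higher in both IFNa livers. DESeq2 also gave 0 in these 4 classes, and without the filter on low counts edgeR called 7 in NK cells and 1 in B cells. Of all genes, 708 of 10696 in NK cells and 948 of 11432 in B cells had an unadjusted p under 0.05. In mature neutrophils 337 of 3921 had one, and in macrophages 1519 of 10774.

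Epithelial cells had 36 of 39 positive fold changes between IFNa and Control livers, a median of 0.42 and 6 unadjusted p under 0.05, and 0 passed; of all 11091 genes tested 0 passed (0%), with 587 at an unadjusted p under 0.05. Without IFNa 18 the count was 4, and DESeq2 gave 0. The epithelial cells of IFNa 23 were shallow, with a median of 3191 UMIs, against 20890 in IFNa 18 and 20790 and 23010 in the Control livers. In IFNa 23, 90 cells under 10000 UMIs had the leukocyte genes Ptprc at 310 CPM, Lyz2 at 1212 CPM and Gzma at 546 CPM, against 15.7, 30.5 and 6.93 CPM in its 61 deeper cells. The shallow cells met the G2/M rule in 63.3% and the S rule in 17.8%, against 57.4% and 50.8% in the deeper cells. Among cells of 10000 UMIs or more, a split added after seeing the data, the S or G2/M share was 63.2% and 73.8% in the IFNa livers and 64.8% and 50.0% in the Control livers, so the groups overlapped and the difference was 11.1 points.

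Classical monocytes showed the broadest fall. Of 39 genes, 19 fell in IFNa livers against Control (11 S and 8 G2/M genes), 38 had a negative fold change and 30 had an unadjusted p under 0.05. The median log2 fold change was -1.49, against 0.03 over all genes. Of all 11592 genes, 9.79% were called and 2878 had an unadjusted p under 0.05. S genes summed to 141 CPM in the combination liver, 157 and 115.5 CPM in the IFNa livers and 301 and 335 CPM in the Control livers, and G2/M genes to 64.5, 101 and 39.7, and 233 and 231 CPM in the same order. Neither sum overlapped between IFNa and Control livers, and the combination liver lay with the IFNa livers. Immature neutrophil markers moved with this fall. The 8 markers (Ngp, Camp, Ltf, Fcnb, Elane, Mpo, Prtn3, Ctsg, granule genes of neutrophil precursors, which divide) summed to 101 CPM in the monocyte gate of the combination liver, 105 and 55.2 CPM in the IFNa livers and 535 and 214 CPM in the Control livers, with 5, 8 and 6, and 8 and 7 of the 8 detected.

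The 6 genes with the smallest adjusted p were Rrm1, Mcm5, Cenpa, Tyms, Mcm3 and Uhrf1. Rrm1, the large subunit of ribonucleotide reductase, had 6.98 CPM in the combination liver, 6.33 and 5.93 CPM in the IFNa livers and 21.6 and 20.6 CPM in the Control livers. Its log2 fold change was -1.75 ± 0.19 (edgeR adjusted p = 0.00157), with no overlap. Mcm5 had 9.30 CPM in the combination liver, 6.33 and 4.85 CPM in the IFNa livers and 17.8 and 20.6 CPM in the Control livers, and fell by 1.70 ± 0.22 (0.00339). Cenpa, the histone of the centromere, had 8.31 CPM in the combination liver, 10.7 and 6.11 CPM in the IFNa livers and 28.7 CPM in both Control livers, and fell by 1.71 ± 0.25 (0.00528). Each of these 3 genes stood below both Control livers in the combination liver too. Tyms, thymidylate synthase, had 3.60 and 2.52 CPM in the IFNa livers and 10.96 and 11.7 CPM in the Control livers (-1.81 ± 0.28, adjusted p = 0.00717). Mcm3 had 11.3 and 9.88 CPM, against 23.8 and 31.2 CPM in Control livers (-1.29 ± 0.20, 0.00735), and Uhrf1, which keeps DNA methylation at replication, had 3.10 and 1.62 CPM, against 9.66 and 13.5 CPM in Control livers (-2.14 ± 0.36, 0.00999). Pcna, with 44.5 CPM in the combination liver, 43.4 and 41.3 CPM in the IFNa livers and 48.1 and 46.1 CPM in the Control livers, did not pass the test.

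Most of the calls were lost in monocytes with 0 or 1 immature neutrophil marker, a split added after seeing the data. Cells with 3 or more of the 8 markers numbered 2 in the combination liver, 3 and 1 in the IFNa livers and 129 and 4 in the Control livers. The 129 cells of Control 11 were 8.90% of its monocytes, had a median of 2909 UMIs, and held 39 of its 56 monocytes with 2 or more G2/M genes (69.6%), so most of the 23.5% that monocytes made up of its G2/M cells came from them. In cells with 0 or 1 marker, the share meeting the S or G2/M rule was 1.98% in the combination liver, 3.23% and 4.44% in the IFNa livers and 3.05% and 3.03% in the Control livers, so that the difference of IFNa and Control was 0.798 points, against -2.50 in all gated cells. In sums of those cells 29 of the 39 genes had enough counts, 1 fell (Ube2c by 1.39 ± 0.29, edgeR adjusted p = 0.0229) and 4 had an unadjusted p under 0.05, while 7.98% of all genes were still called. Of the 29 genes, 21 had a negative fold change, and the median was -0.45. That median covers fewer genes than the median in all gated monocytes. With all gated cells, dropping 1 liver at a time left 7 calls (Control 11 dropped), 8 (Control 25), 12 (IFNa 23) and 25 (IFNa 18), and DESeq2 gave 13. Tyms was lost when Control 11 was dropped (edgeR adjusted p = 0.0677).

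**Figure D4:**
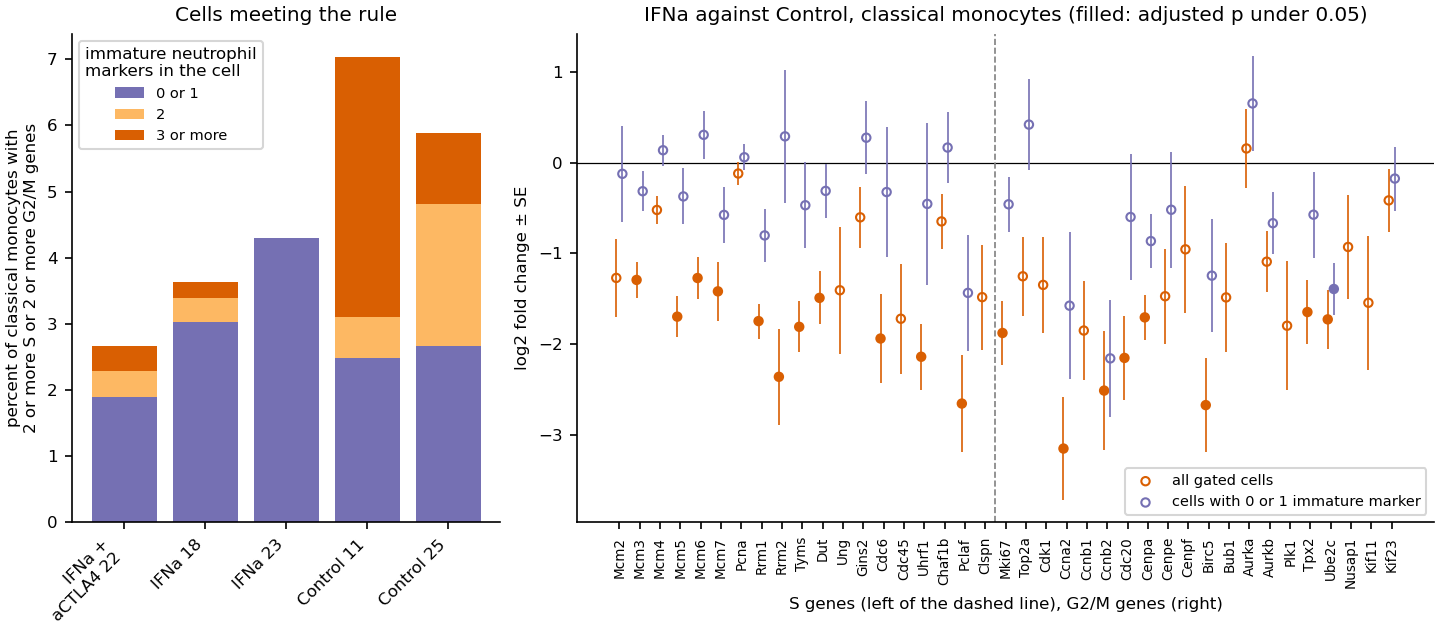
Left, percent of classical monocytes meeting the rule in each liver, divided by the number of immature neutrophil markers in the cell. Right, log2 fold change ± SE of each gene, IFNa against Control, in all gated monocytes (orange) and in those with 0 or 1 marker (purple), filled where the adjusted p was under 0.05: 19 orange points and 1 purple point are filled.

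A small group of regulators went the other way in the same monocytes. Of 65 regulators tested, 4 rose and 12 fell in IFNa livers. Of all 11592 genes tested, 765 rose and 370 fell. The 4 that rose were thus near the share of all genes, and the 12 that fell were above it. The D-type cyclins, which partner Cdk4 and Cdk6 in G1, rose: Ccnd2 by 3.23 ± 0.28 (edgeR adjusted p = 0.000468) and Ccnd1 by 3.61 ± 0.49 (0.00366), and so did the securin gene Pttg1 by 1.16 ± 0.13 (0.00163) and the kinase inhibitor p21, Cdkn1a, by 1.11 ± 0.17 (0.00645). In cells with 0 or 1 immature marker these 4 still rose, by 3.12, 3.47, 1.15 and 1.01 for Ccnd2, Ccnd1, Pttg1 and Cdkn1a, and Lig1 (1.31) and Cks2 (0.77) also rose, while Cdca3 (-2.08, edgeR adjusted p = 0.0483) and Cdk4 (-0.62, 0.0479) fell. Among the 12 that fell in all gated cells were Gmnn, the inhibitor of relicensing (-1.17 ± 0.17, adjusted p = 0.00609), Cks1b (-1.68 ± 0.25, 0.00623), Tipin (-1.44 ± 0.22, 0.00714) and Cdca8 (-2.10 ± 0.35, 0.00914). In cells with 0 or 1 immature marker these 4 no longer passed, with Gmnn at -0.78 (edgeR adjusted p = 0.0657), Cks1b at -0.78 (0.248), Tipin at -0.30 (0.595) and Cdca8 at -1.03 (0.257). In macrophages the same 4 rose in IFNa livers, Ccnd1 by 2.80 ± 0.32, Pttg1 by 1.43 ± 0.20, Ccnd2 by 1.09 ± 0.17 and Cdkn1a by 0.88 ± 0.20 (edgeR adjusted p of 0.0336 or smaller), with no S or G2/M gene called. Of all 10774 genes tested in macrophages, 252 rose.

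In cDC2 3 of the same regulators rose, Ccnd1 by 1.42 ± 0.20, Cdkn1a by 1.31 ± 0.19 and Pttg1 by 1.30 ± 0.22 (edgeR adjusted p of 0.00449 or smaller). Among all 9665 genes tested in cDC2, 191 rose. Of 35 cell cycle genes 8 had an unadjusted p under 0.05, as did 1059 of all 9665 genes. After adjustment 1 of the 35 fell (2.38% of all genes were called). That gene, Ube2c, had 7.13 CPM in the combination liver, 3.12 and 7.65 CPM in the IFNa livers and 26.9 and 34.9 CPM in the Control livers, and fell by 2.39 ± 0.41 (edgeR adjusted p = 0.00478), a call that DESeq2 did not give (0.116). Classical monocyte markers in the cDC2 gate summed to 3593 CPM in the combination liver, 2494 and 2536 CPM in the IFNa livers and 621 and 656 CPM in the Control livers, while cDC2 markers summed to 1696, 1798 and 1707, and 1938 and 2320 CPM in the same order. The part of these monocyte transcripts in the result was not tested.

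The comparison of the combination with IFNa livers asks what aCTLA4 added to IFNa, and it shares the IFNa livers with the comparison above. In CD8 T cells 38 of 39 genes had a positive fold change, the median was 0.80, 18 had an unadjusted p under 0.05, and 1 passed (0.222% of all genes). Pclaf had 121 CPM in the combination liver, 36.3 and 43.6 CPM in the IFNa livers and 60.3 and 58.3 CPM in the Control livers. It was highest in the combination liver and lowest in the IFNa livers, and rose by 1.54 ± 0.21 over IFNa (edgeR adjusted p = 0.0428). The call was lost with DESeq2 (adjusted p = 0.133), a stricter gate (0.0538), doublets kept (0.104) and without Control 11 (0.126) or Control 25 (0.195). Shares meeting the S or G2/M rule were 35.3% in the combination liver (95% interval 33.1% to 37.5%) and 22.3% and 33.5% in the IFNa livers, and those meeting the G2/M rule 12.6% (11.1% to 14.2%) in the combination liver and 4.53% and 9.29% in the IFNa livers. None of 70 regulators passed, with 61 positive and 14 at an unadjusted p under 0.05.

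Other T cells passed the T cell gate but had no UMI of Cd4, Cd8a, Cd8b1 or Foxp3, or had Cd8a or Cd8b1 together with Cd4 or Foxp3. They had the largest positive median, 1.09 (1.55 for G2/M and 0.75 for S genes), with 37 of 38 positive. An unadjusted p under 0.05 was found for 17, and 0 were called (0.305% of all genes). Their G2/M share was 14.98% in the combination liver (12.3% to 17.98%) and 2.69% and 4.82% in the IFNa livers. In the Control livers it was 4.79% and 0 of 28 cells, and the latter allows up to 12.3%. The gate held different cells in the combination liver: Cd8a and Cd8b1 summed to 782 CPM there, 170 and 392 CPM in the IFNa livers and 214 and 229 CPM in the Control livers, and gamma-delta T cell genes to 89.3 CPM, against 193 and 264 CPM in the IFNa livers and 282 and 83.4 CPM in the Control livers. The part of this shift in the G2/M genes was not tested. Leaving out any 1 liver gave between 1 and 5 calls.

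In CD4 T cells 36 of 37 genes were positive in the combination against IFNa (median 0.71, 4 unadjusted), and 0 passed (0.107% of all genes). Tregs went no further, with 13 of 39 positive, a median of -0.13 and 0 called (0.145%, 1 unadjusted), although the share of Tregs meeting the rule was 39.0% in the combination liver and 39 of 130 cells and 30.9% in the IFNa livers. NK cells (0 of 39, 0.0654% of all genes, 0 unadjusted), B cells (0 of 37, 0.0612%, 0 unadjusted), macrophages (0 of 23, 2.13%, 1 unadjusted), classical monocytes (0 of 39, 0.328%, 2 unadjusted) and cDC2 (0 of 35, 0.497%, 11 unadjusted) had no called gene, and DESeq2 also gave 0 for each of these classes. Without the filter on low counts edgeR called 12 in other T cells, 9 in CD8 T cells, 5 in cDC2 and 1 in CD4 T cells. In this comparison 274 of all 11283 genes in CD8 T cells had an unadjusted p under 0.05. Other T cells had 298 of 10504, CD4 T cells 255 of 9345, Tregs 573 of 10312 and NK cells 390 of 10696. B cells had 680 of 11432, macrophages 1282 of 10774, classical monocytes 1192 of 11592 and cDC2 831 of 9665. Of the 35 genes in cDC2, all but Ube2c (0.34), Aurkb (0.41) and Mcm4 (0.28) had a negative log2 fold change. The combination liver gave 64 such cells. The 1 regulator called in this comparison was Cdk6 in macrophages, with a log2 fold change of -1.84 ± 0.29 (edgeR adjusted p = 0.00709).

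T cell receptors, which the gene list did not use, divided CD8 T cells by clone size. Cells whose receptor pair was found in 2 or more cells of the liver met the S or G2/M rule in 38.2% in the combination liver, 44.9% and 41.2% in the IFNa livers and 29.1% in Control 11. Cells with a receptor pair found once met it in 23.4%, 18.9% and 23.3%, and 20.1% in the same order of livers. Expanded cells were higher in 4 of 4 livers, by 16.9 ± 7.11 points (SD), with an exact sign-flip p of 0.125, the smallest that 4 livers allow. By the G2/M rule the shares were 13.3% against 4.83% in the combination liver, 16.3% against 0.556% and 12.8% against 4.67% in the IFNa livers and 5.46% against 4.70% in Control 11, so that Control 11 showed almost no gap. Control 25 had too few cells. In Tregs expanded cells were higher in 3 of 4 livers, by 6.05 ± 11.2 points (exact p = 0.375), where the combination liver gave -10.3 points, and in CD4 T cells higher in 3 of 3 livers by 7.29 ± 5.36 points (exact p = 0.25, the smallest possible). By the G2/M rule CD4 T cells showed no such order, with expanded cells higher in 1 of 3 livers and a mean difference of -0.0973 points.

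**Figure D5:**
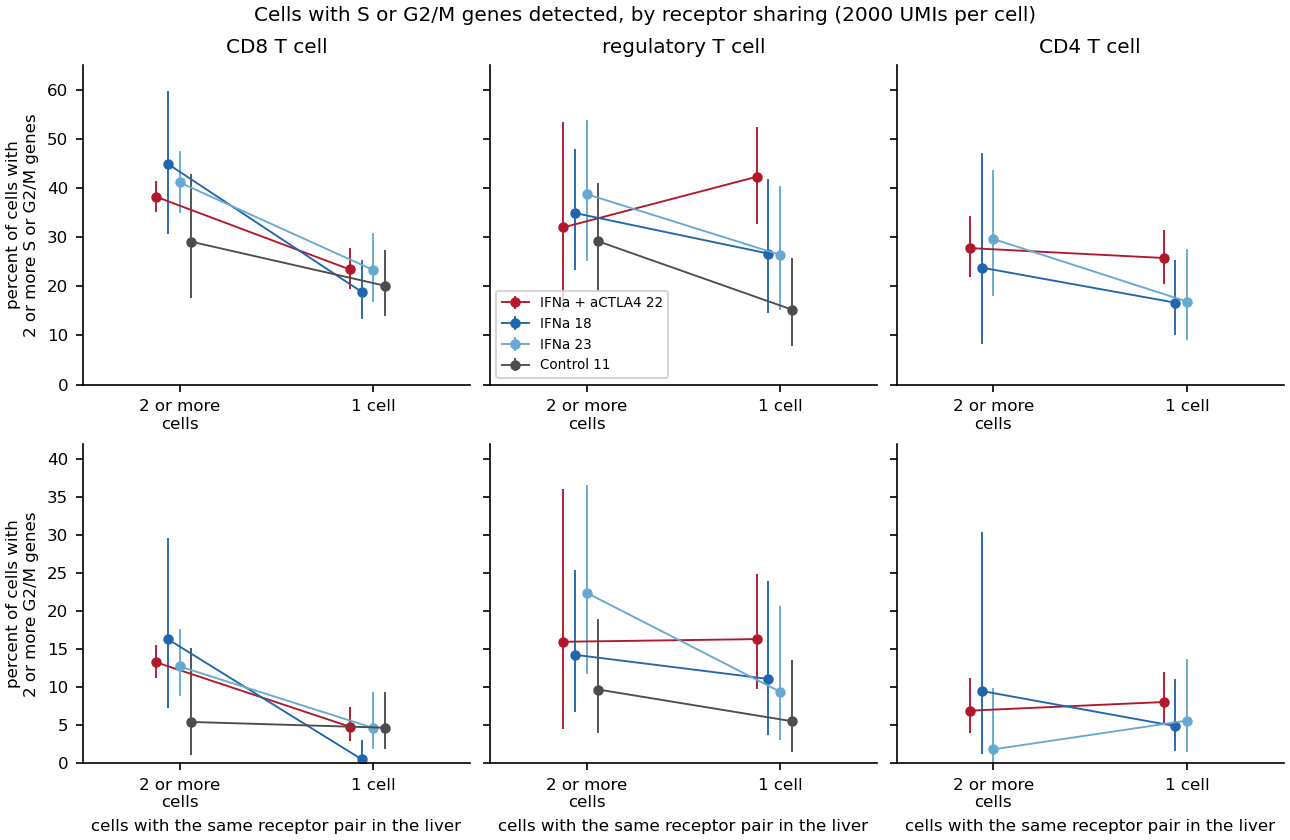
Percent of cells meeting the S or G2/M rule (top) and the G2/M rule (bottom) among cells whose receptor pair occurred in 2 or more cells (left points) or 1 cell (right points) of a liver, for CD8 T cells, Tregs and CD4 T cells; lines join the points of a liver and bars are exact 95% binomial intervals. All 4 CD8 lines fall to the right, and the Treg line of the combination liver rises.

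CD8 T cells with 2 or more G2/M genes were also compared with CD8 T cells that met neither rule, over 4 livers with the liver as a block and with the 39 genes left out, a comparison added after seeing the data. The G2/M-positive cells numbered 225 in the combination liver, 13 and 43 in the IFNa livers and only 13 in Control 11, against 1156, 223 and 308, and 203 cells with neither call. Since the cells were chosen by cell cycle genes, other cell cycle genes go with the choice. Of 10041 genes, 1539 were called by edgeR (15.3%), 976 higher and 563 lower, and of 69 regulators 60 were higher and 3 lower. The 3 lower were the D cyclins Ccnd2 (-0.68 ± 0.19, adjusted p = 0.024) and Ccnd3 (-0.62 ± 0.18, 0.0288) and the inhibitor p27, Cdkn1b (-0.72 ± 0.17, 0.00826). Outside the cell cycle, Il7r, the interleukin-7 receptor, had 109.5 against 318 CPM in the combination liver, 185 against 595 and 60.8 against 225 CPM in the IFNa livers and 92.9 against 531 CPM in Control 11 (-1.92 ± 0.19, edgeR adjusted p = 4.11e-06). Lef1, a transcription factor of naive T cells, fell by 2.00 ± 0.23 (edgeR adjusted p = 1.83e-05), and both genes were lower in 4 of 4 livers. These genes were chosen after their values were seen. The G2/M-positive cells were deeper, with 1.20 to 1.80 times the median UMIs of the remaining CD8 T cells of their liver.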

How the data were processed

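Per the labels' protocols, 10x 3' v3.1 gene expression and T cell receptor libraries were made from sorted viable cells, and per the submitters' processing notes they were processed with Cell Ranger 7.0.1 on mm10. The authors deposited unnormalised UMI counts for each gene and cell, and the deposited receptor tables were used for clone size only. Library totals were 10464216 to 69856071 UMIs.

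A cell needed 200 detected genes and a mitochondrial share of 15% or less, and 1542 cells scored as doublets were removed (simulated doublets, 30 components, 30 neighbours, 0.8% expected per 1000 cells). A cell was placed in the class with the largest share of its markers detected, if that share was at least 60% and at least 15 percentage points above the next class (30 for the stricter gate). T cells were divided by UMIs of Cd4, Cd8a or Cd8b1 and Foxp3, so the gates use single transcripts and depend on depth. The gate thresholds, the members and the gene lists were chosen with earlier results of these data known, and several thresholds were tried with cell numbers and shares in view. Cells were thinned to 2000 UMIs for shares, and shallower cells were left out there.

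Counts were summed per liver and class (at least 20 cells, or 10 for CD8 T cells with and without G2/M genes) and tested with edgeR 4.0.16 (quasi-likelihood, TMM, filterByExpr, Benjamini-Hochberg over all genes tested in a class, threshold 0.05) in R 4.3.3, with all groups of a class in 1 fit. DESeq2 1.42.0, other scaling, no filter, a stricter gate, doublets kept and leaving out each liver were alternatives. Shares were compared with exact permutation tests. Binomial intervals, and the upper limits given where no cell met a rule, are exact (Clopper-Pearson, 95%) and cover counting error only. The fits were checked on simulated data. Python 3.11.15 with numpy 2.4.6, scipy 1.17.1, pandas 2.3.3, scikit-learn 1.9.0 and matplotlib 3.10.9 was used.

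Named genes were Mki67, Top2a, Mcm5, Pcna, Rrm2, Ube2c, Birc5 and Cdc20 in the classes where the list was highest (Tregs and epithelial cells), up to 6 called members and 4 called regulators per class and comparison by adjusted p, and the 5 genes outside the list most like each phase sum. Others were chosen after their values were seen. No paired analysis was possible because the liver numbers are not shared between groups.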

Additional observations from a re-analysis of the deposited data

Results flagged for a closer look

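The difference of IFNa minus Control in the share of cells meeting the S or G2/M rule had opposite signs in classical monocytes and in 3 other classes, with both livers of each group on one side. Epithelial cells and classical monocytes differed by 17.7 percentage points in this difference, Tregs and classical monocytes by 7.61 points, and macrophages and classical monocytes by 5.17 points. These differences between classes were not tested. In classical monocytes with 0 or 1 immature neutrophil marker, the difference was 0.798 points. In all gated monocytes it stayed between -3.07 and -1.92 points without any 1 liver. The part of the marker-positive cells in it was not tested. The epithelial side includes the shallow cells of IFNa 23: among cells of 10000 UMIs or more the shares were 63.2% and 73.8% in the IFNa livers and 64.8% and 50.0% in the Control livers, which overlap, and without thinning the epithelial difference was 4.08 points.

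Cells that no gate took, which the comparisons did not use, met the S or G2/M rule in 26.1% in the combination liver and 17.3% in IFNa 23, above the 12.4% and 13.3% of the Control livers, and in 9.27% in IFNa 18. They had median depths of 1592 UMIs in the combination liver and 6734 UMIs in IFNa 23, against 3985 and 8465 UMIs in the Control livers, and the part of depth was not tested.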

How the results depend on the processing

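Of 333 counts recomputed under alternatives, 275 stayed within 1.5 times the main count and 58 did not, and no named gene changed sign. Without the filter on low counts, IFNa against Control called 30 members in classical monocytes, 14 in Tregs, 7 in cDC2, 7 in NK cells, 5 in CD8, 5 in CD4, 1 in other T, 1 in B and 1 in epithelial cells, and the combination against IFNa called 12 in other T, 9 in CD8, 5 in cDC2 and 1 in CD4 cells. In Tregs (IFNa against Control) other size factors gave 2, a stricter gate 2, and doublets kept and DESeq2 0 each. DESeq2 gave 0 in cDC2, in CD8 T cells (combination) and in mature neutrophils against B cells. CD8 T cells (combination) also had 0 with a stricter gate or doublets kept, and against B cells the stricter gate gave 1 in mature dendritic cells and 0 in neutrophils, and other size factors 2 in macrophages. Size factors moved the median of all genes by 0.12 in epithelial cells and -0.13 in mature neutrophils against B cells. Classical monocytes with at most 1 immature marker gave 1.

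Leaving out 1 liver gave, for IFNa against Control, 7 to 25 calls in classical monocytes, 0 to 10 in NK cells, 1 to 5 in Tregs, 1 to 5 in cDC2, 0 to 4 in epithelial cells, 0 to 2 in B and in CD4 cells and 0 to 1 in CD8 and in other T cells. For the combination against IFNa it gave 1 to 5 in other T cells, 0 to 3 in CD8 T cells, 0 to 2 in classical monocytes and 0 to 1 in cDC2, and against B cells 5 to 11 in cDC2, 0 to 2 in macrophages and 0 to 1 in mature neutrophils and non-classical monocytes. The causes were not tested.

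Of the differences in shares, IFNa minus Control, no thinning gave -3.29 points in Tregs, -7.96 in other T, 2.36 in NK, -1.41 in B cells, -13.6 in classical monocytes, 5.64 in macrophages and 4.08 in epithelial cells. Thinning to 1000 UMIs gave 2.07 in NK cells, at least 3 members gave 4.08 in NK cells and 1.64 in macrophages, and classical monocytes with at most 1 immature marker gave 0.798. The expanded minus single difference in CD8 T cells stayed between 13.9 and 19.5 points without any 1 liver.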
